A study of Homo sapiens with 12 samples.

Results

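The lysosomal cathepsins CTSA, CTSB, CTSC, CTSD, CTSH, CTSK, CTSL, CTSS and CTSZ were 9 of the 17518 genes in a table of RNA-seq read counts, and were picked from it by gene symbol. The table held 12 libraries of 2 lines of human cells. Both lines, MUTZ-1 and SKM-1, are labelled as marrow cells of myelodysplastic syndrome, a clonal disorder of blood formation. Each line gave 3 libraries labelled sh control, with the genotype entry WT, and 3 labelled shNUDT21, in which a short hairpin RNA (shRNA) lowered NUDT21, the small subunit of a complex that helps to choose the 3′ ends of mRNAs. All 4 groups were grown in the same medium with fetal bovine serum, and polyadenylated RNA was sequenced from total RNA. The deposited columns of all 6 knockdown libraries carry the same tag, sh1. How many hairpins and clones it stands for is not given in the sources used here, and nothing says that the 3 libraries of a group came from separate cultures, so p-values cover only the spread among the libraries, which may be technical. The set was chosen with these measurements in view, namely the levels in each line and the change after knockdown, with the fall of CTSS in MUTZ-1 named. The difference between the lines and the change after knockdown in MUTZ-1 are therefore given as descriptions with no test. The 9 genes were tested only in the SKM-1 knockdown. Its values were not kept apart from the choice of the set, so these p-values describe spread and are no independent support.

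Libraries held 15843012 to 18426619 counts. Of the 17518 genes, 13625 passed the filter on low counts and were tested, all 9 cathepsins among them; CTSL passed through its SKM-1 libraries, since it had no or 1 read in every MUTZ-1 library. For 1 gene across libraries the text uses CPM (counts over the scaled library total), and for different genes side by side FPKM, which also divides by gene length. NUDT21 itself averaged 299.5 ± 2.31 CPM (SD, n = 3) in the MUTZ-1 controls and 138 ± 3.78 after knockdown, which left 46.1%. In SKM-1 it went from 334 ± 11.1 to 131 ± 1.31 CPM, which left 39.2%.

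Cathepsins are proteases of the lysosome, the acidic compartment in which cells break down proteins taken up from outside or delivered by autophagy. They are made as inactive precursors, tagged with mannose 6-phosphate in the Golgi, carried to the lysosome and activated there by cleavage at low pH. CTSB, CTSC, CTSH, CTSK, CTSL, CTSS and CTSZ are cysteine proteases of the papain family, CTSD is an aspartic protease and CTSA a serine carboxypeptidase. In blood cells they are best known for processing antigens and the invariant chain of class II molecules (CTSS, CTSL), for activating the serine proteases of granules (CTSC) and for breaking down bone matrix in osteoclasts (CTSK).

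Many lysosomal genes carry the letters CACGTG near their start, the core of the element bound by TFEB and its relatives TFE3 and MITF. RefSeq promoter windows (GRCh38.p14, 250 bases before to 50 after the start) were matched for 6 of the 9 genes, CTSA, CTSC, CTSD, CTSH, CTSL and CTSZ. A search of both strands found CACGTG in 2 of these 6 windows, and in 7.26% of the 35116 promoters in the table. The letters GAAANNGAAA, found in interferon response elements, were in 0 of the 6 windows and in 3.57% of all promoters. The 120 bases before the start are printed for the genes among these 6 with a CACGTG, CTSA (chr20:45891215-45891334, plus strand) and CTSD (chr11:1763928-1764047, minus strand), and for the 2 genes with the largest rises in SKM-1, CTSL (chr9:87725999-87726118, plus strand) and CTSZ (chr20:59007255-59007374, minus strand). Capitals mark CACGTG.
CTSA: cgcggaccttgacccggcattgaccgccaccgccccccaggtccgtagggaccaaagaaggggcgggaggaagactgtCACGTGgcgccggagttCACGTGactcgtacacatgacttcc
CTSD: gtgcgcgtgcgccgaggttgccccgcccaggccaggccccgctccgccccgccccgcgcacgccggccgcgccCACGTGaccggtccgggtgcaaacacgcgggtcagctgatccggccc
CTSL: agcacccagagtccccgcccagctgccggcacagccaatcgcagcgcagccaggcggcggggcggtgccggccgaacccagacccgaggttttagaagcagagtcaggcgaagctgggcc
CTSZ: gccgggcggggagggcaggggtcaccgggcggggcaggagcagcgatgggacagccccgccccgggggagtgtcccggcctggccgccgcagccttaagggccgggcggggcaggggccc
The 2 copies upstream of CTSA begin 42 and 25 bases before the start, and the copy of CTSD 47 bases before it. The G and C content of the 6 windows ran from 58.0% to 81.0%. A match is a run of letters and not a measured binding site.

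The lines differed in which cathepsins made up the total. In the MUTZ-1 controls CTSZ, a carboxypeptidase also called cathepsin X, was highest at 98.0 ± 1.18 FPKM (SD, n = 3) and made up 51.7% of the FPKM summed over the 9 genes. CTSD followed at 34.5, CTSS at 20.2, CTSA at 16.1, CTSC at 10.4, CTSB at 6.11, CTSH at 2.84 and CTSK at 1.43 FPKM, and CTSL was at 0. None of these neighbours overlapped between libraries. In the SKM-1 controls CTSD was highest at 118 ± 1.25 FPKM and made up 40.7% of the sum. It was followed by CTSB at 55.2 (19.1% of the sum), CTSZ at 30.1, CTSA at 27.5, CTSC at 19.7, CTSL at 18.3, CTSH at 18.2, CTSS at 1.54 and CTSK at 1.02 FPKM. Here CTSL and CTSH did not differ beyond their spread. The libraries of CTSC and CTSL overlapped, as did those of CTSS and CTSK.

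**Figure D1:**
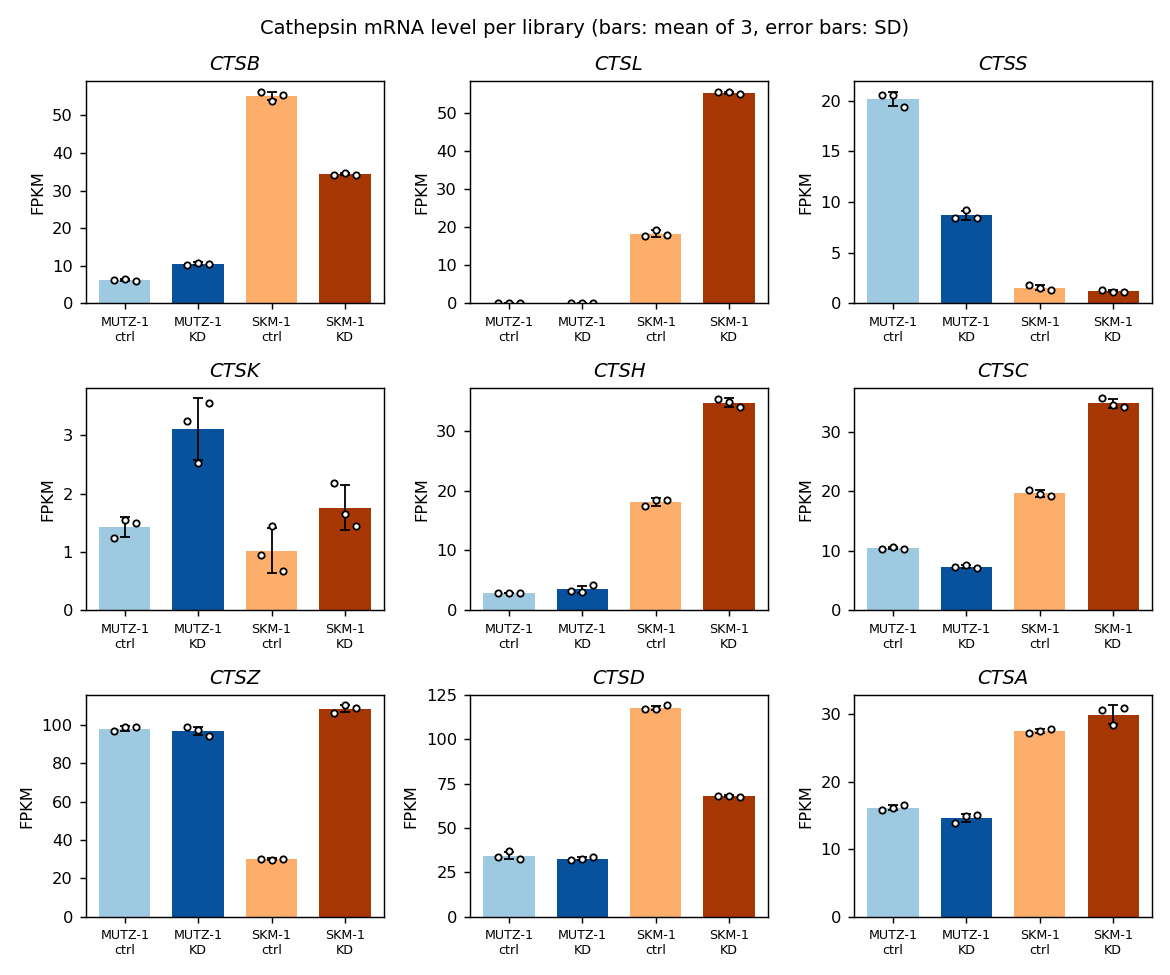
FPKM of each of the 9 cathepsins in the 4 groups (ctrl, control shRNA; KD, NUDT21 shRNA). Bars are means of 3 libraries, error bars SD and circles single libraries, and each panel has its own axis from 0. CTSS is higher in MUTZ-1 than in SKM-1 and goes from 20.2 to 8.66 FPKM in MUTZ-1, CTSL has no visible bar in MUTZ-1, and CTSZ goes from 30.1 to 108 FPKM in SKM-1.

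After knockdown the make-up of SKM-1 moved toward CTSZ and CTSL. CTSZ went from 10.4% to 29.4% of the summed FPKM and CTSL from 6.31% to 15.03%, while CTSD went from 40.7% to 18.44% and CTSB from 19.1% to 9.32%. The order became CTSZ at 108, CTSD at 68.0, CTSL at 55.4, CTSC at 34.9, CTSH at 34.8, CTSB at 34.4, CTSA at 29.9, CTSK at 1.76 and CTSS at 1.19 FPKM, in which CTSC, CTSH and CTSB did not differ beyond their spread. In MUTZ-1 the order after knockdown was CTSZ at 96.7, CTSD at 32.7, CTSA at 14.6, CTSB at 10.5, CTSS at 8.66, CTSC at 7.28, CTSH at 3.45, CTSK at 3.10 and CTSL at 0.0122 FPKM, and the libraries of CTSH and CTSK overlapped. CTSS went from 10.6% to 4.89% of the sum and CTSB from 3.22% to 5.92%. The summed FPKM of the 9 genes was 190 ± 3.61 in MUTZ-1 controls, 177 ± 0.444 after knockdown, 289 ± 0.931 in SKM-1 controls and 369 ± 1.23 after knockdown.

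**Figure D2:**
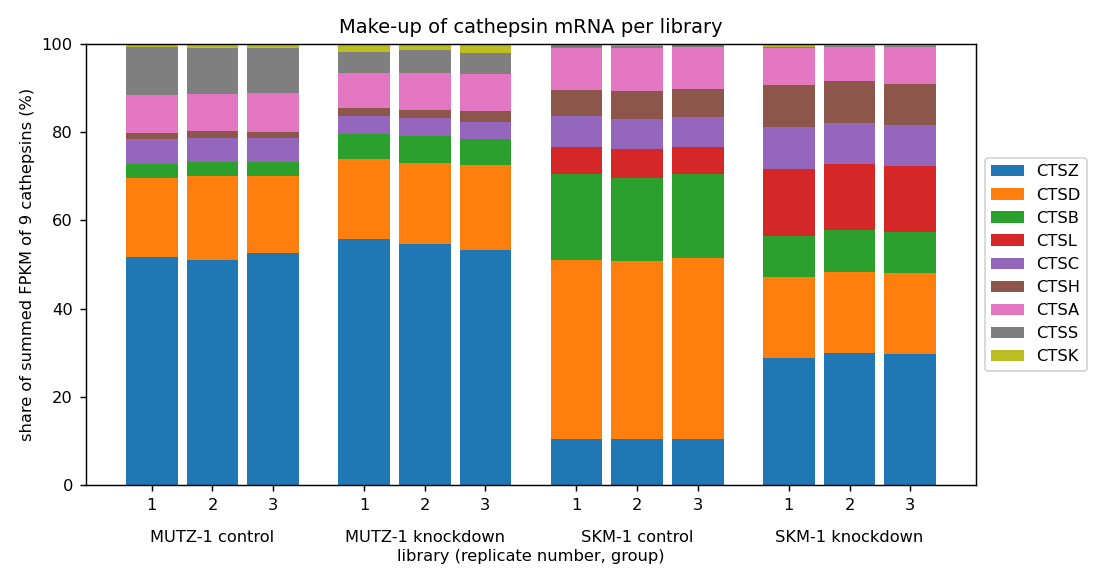
Share of each cathepsin in the summed FPKM of the 9 genes, in percent, for each of the 12 libraries by group and replicate number. CTSZ fills 51.7% on average in the MUTZ-1 controls and 10.4% in the SKM-1 controls, where CTSD is largest at 40.7%, and after knockdown in SKM-1 CTSZ reaches 29.4%.

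The order between genes rests on the lengths behind the deposited FPKM. For CTSC that length was 7588 bases, against 1921 bases for its representative GENCODE v29 transcript. With counts divided by the lengths of representative transcripts, an alternative added after the data were seen, CTSC made up 21.0% in the SKM-1 controls, second after CTSD at 30.7%, and 28.2% after knockdown, above CTSZ at 22.3%. CTSZ stayed highest in both MUTZ-1 groups, at 43.2% and 46.8%. Comparisons of 1 gene across libraries do not depend on the length chosen for it. Whether the length of its transcripts changed between the groups was not measured.

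Between the control lines, CTSS and CTSZ were higher in MUTZ-1 and most other cathepsins were higher in SKM-1. CTSS, the endopeptidase that trims the invariant chain, was at 84.5, 84.5 and 79.4 CPM in the MUTZ-1 controls and at 6.74, 5.64 and 4.88 CPM in the SKM-1 controls, 14.4-fold higher in MUTZ-1 (log2 difference 3.84 ± 0.08, SE). CTSZ was 3.58-fold higher in MUTZ-1, at 1.84 ± 0.04. CTSB was 8.23-fold lower in MUTZ-1 (-3.04 ± 0.04), CTSH 5.82-fold (-2.54 ± 0.07), CTSD 3.11-fold (-1.64 ± 0.03), CTSC 1.72-fold (-0.78 ± 0.03) and CTSA 1.55-fold (-0.63 ± 0.04).

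CTSL separated the lines most. It had 0 counts in the 3 MUTZ-1 control libraries together and 1499 in the SKM-1 controls, which makes it at least 485-fold lower in MUTZ-1 if the group is given a floor of 3 counts. After knockdown it had 1 count in MUTZ-1 and 4380 in SKM-1, a ratio of 4451 with a 95% counting interval from 798 to 175835; such floors and intervals cover counting error only. For 8 of the 9 genes the control libraries of the lines did not overlap, CTSK being the exception at 0.61 ± 0.25, but the same held for 90.0% of all tested genes. The median log2 difference was -0.71 over the 8 genes with a fitted value and -0.78 with CTSL at its bound, against -0.11 over all tested genes.

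In SKM-1 all 9 cathepsins changed after NUDT21 knockdown. CTSZ, CTSL, CTSH, CTSC, CTSK and CTSA rose and CTSD, CTSB and CTSS fell, by edgeR's quasi-likelihood test at a Benjamini-Hochberg adjusted p under 0.05 over all tested genes. Knockdown in SKM-1 moved most genes, with 42.1% of all tested genes higher and 42.3% lower, 84.4% in all, so 9 of 9 is close to the background. Of the 9 genes, 3 (CTSH, CTSL and CTSZ) rose at least 2-fold, as did 12.6% of all tested genes. CTSH, at 2.03-fold, lay just past that size and was under it in 6 of 14 alternative fits (lowest log2 value 0.90, in log2(FPKM + 1)), whereas CTSL and CTSZ stayed above it in all 14 and CTSK passed it in 1. The median log2 fold change of the 9 genes was 0.86, against 0.00 for all tested genes, whose middle 50% lay between -0.89 and 0.58.

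CTSZ was at 43.2, 42.3 and 43.2 CPM in the SKM-1 controls and at 161, 166 and 163 CPM after knockdown. All 3 knockdown libraries lay far above the controls, 3.81-fold on average (log2 1.93 ± 0.04, SE; adjusted p = 1.64e-115, edgeR). CTSL, an endopeptidase active on many lysosomal substrates, went from 26.9, 29.5 and 27.4 CPM to 90.1, 90.1 and 89.0 CPM. It was 3.21-fold higher (1.68 ± 0.06, adjusted p = 4.85e-70, edgeR), again with no overlap between the groups.

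CTSH, an aminopeptidase, rose from 47.1, 50.1 and 50.2 CPM to 102, 100.01 and 97.3 CPM, 2.03-fold (1.02 ± 0.05, adjusted p = 1.40e-49, edgeR). CTSC, the dipeptidyl peptidase that activates granule proteases, rose from 146, 141 and 138 CPM to 272, 264 and 261 CPM, 1.87-fold (0.91 ± 0.03, adjusted p = 5.38e-76, edgeR). In both genes every knockdown library was above every control.

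CTSK, the collagen-degrading enzyme, was low throughout, with 1.46, 2.23 and 1.03 CPM in the controls and 3.57, 2.69 and 2.36 CPM after knockdown. Its groups did not overlap, but its rise had the widest error of the 9 (0.86 ± 0.24, adjusted p = 6.16e-04, edgeR) and was 0.46 on the log2(FPKM + 1) scale, which shrinks differences of low genes. CTSA, which also protects the sialidase NEU1 and the galactosidase GLB1 in the lysosome, rose least, from 78.7, 79.7 and 80.6 CPM to 93.5, 87.0 and 94.3 CPM (0.20 ± 0.04, adjusted p = 3.83e-06, edgeR). Its rise was 0.12 with library totals alone as the scaling and in both fits of FPKM, still called. CTSA shares its 3′ end with PLTP on the opposite strand, whose log2 fold change was -0.62, and whether counting used the strand is not given in the sources used here.

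CTSD fell from 228, 228 and 233 CPM to 141, 141 and 139 CPM, which left 61.1% (-0.71 ± 0.03, adjusted p = 4.80e-57, edgeR). CTSB, an endopeptidase that also acts as a dipeptidyl carboxypeptidase, fell from 262, 252 and 259 CPM to 169, 172 and 169 CPM, which left 65.9% (-0.60 ± 0.03, adjusted p = 1.38e-49, edgeR). These 2 genes, the highest of the 9 in the SKM-1 controls by FPKM, dropped with no overlap between the groups.

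CTSS was near the low end in SKM-1 and fell slightly, from 6.74, 5.64 and 4.88 CPM to 5.26, 4.43 and 4.47 CPM (-0.29 ± 0.13, adjusted p = 0.0318, edgeR). The groups overlapped, since the highest knockdown library lay above the lowest control. The call was lost without control replicate 1 (-0.16, adjusted p = 0.295, edgeR), without knockdown replicate 2 (-0.27, adjusted p = 0.0764), without knockdown replicate 3 (-0.25, adjusted p = 0.0965) and in a fit of the SKM-1 libraries alone (-0.31, adjusted p = 0.0555).

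In MUTZ-1 CTSS had the largest difference after knockdown. It went from 84.5, 84.5 and 79.4 CPM in the controls to 33.2, 36.5 and 33.4 CPM after knockdown, which left 41.5% (log2 -1.27 ± 0.06, SE). Every knockdown library was far below every control. CTSC, at 81.6, 84.0 and 81.2 CPM in the controls, was at 55.7, 57.4 and 54.0 CPM after knockdown, which left 67.7% (-0.56 ± 0.04).

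CTSB was higher after knockdown in MUTZ-1, at 50.2, 53.7 and 52.3 CPM against 31.0, 32.8 and 30.3 CPM, 1.66-fold (0.73 ± 0.05). CTSK was at 5.33, 4.14 and 5.83 CPM against 2.09, 2.63 and 2.55 CPM, 2.11-fold higher with a wide error (1.08 ± 0.21). CTSH, at 9.14, 8.78 and 11.8 CPM against 8.49, 8.60 and 8.20 CPM, differed by 0.24 ± 0.10, and by 0.09 without knockdown replicate 3, the highest library.

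The other 3 measured genes were slightly lower in MUTZ-1. CTSA was at 42.9, 45.6 and 46.2 CPM after knockdown against 50.2, 51.2 and 52.5 CPM (-0.19 ± 0.05). CTSD was at 66.2, 67.4 and 70.0 CPM against 72.2, 79.2 and 70.1 CPM (-0.12 ± 0.04). CTSZ was at 149.6, 147 and 143 CPM against 151, 155 and 155 CPM (-0.07 ± 0.03), the smallest difference of the 8. With library totals alone these 2 values were -0.07 for CTSD and -0.02 for CTSZ, and without control replicate 2 they were -0.04 and -0.04.

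The groups did not overlap in CPM for 8 of the 9 genes in MUTZ-1, 5 lower and 3 higher, and 53.6% of all tested genes met the same condition. This contrast was used to choose the set, so nothing is read from that count, and on the FPKM scale the libraries of CTSD and CTSZ overlapped. The median log2 fold change of the 8 genes with counts was -0.09, against 0.00 for all tested genes.

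**Figure D3:**
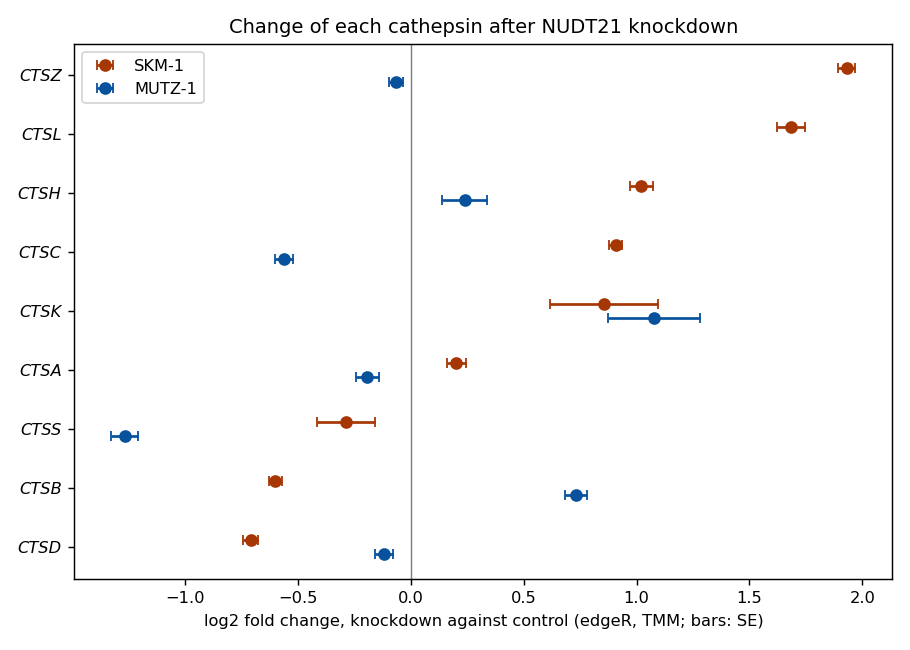
Log2 fold change of each cathepsin after NUDT21 knockdown against control in SKM-1 and MUTZ-1, with SE as error bars; CTSL had too few reads in MUTZ-1 for a point. CTSZ is at 1.93 in SKM-1 and -0.07 in MUTZ-1, CTSC at 0.91 and -0.56, CTSB at -0.60 and 0.73, and CTSS at -0.29 and -1.27.

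Set side by side, 4 of the 9 genes were higher after knockdown in 1 line and lower in the other, with no overlap between control and knockdown libraries in either, as were 29.9% of all tested genes. One of them, CTSZ, overlapped between the MUTZ-1 groups on the FPKM scale, which leaves 3 there. The MUTZ-1 contrast was used to choose the set, so nothing is read from this count. The knockdown effect in MUTZ-1 minus that in SKM-1 was -1.997 ± 0.051 (log2, SE) for CTSZ, -1.47 ± 0.05 for CTSC, 1.33 ± 0.06 for CTSB and -0.39 ± 0.06 for CTSA. It was 0.59 ± 0.05 for CTSD, which was lower after knockdown in both lines, and -0.98 ± 0.14 for CTSS. CTSH (-0.78 ± 0.11) and CTSK (0.22 ± 0.32) were higher after knockdown in both. These differences contain the MUTZ-1 contrast and were not tested.

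Markers of other cell types moved beside these changes. The 2 lines share a labelled cell type but differed in blood cell markers. In MUTZ-1, 8 of 8 B lineage markers were at 5 CPM or more. Their sum was 2279 to 2288 CPM in the controls and 1971 to 2022 CPM after knockdown. By the test 4 of the 8 were lower and 1 higher, against 24.6% of all tested genes lower and 24.4% higher. In SKM-1 the B lineage sum was 6.35 to 9.37 CPM in the controls and 3.77 to 4.51 CPM after knockdown. The 8 myeloid progenitor markers summed to 82.0 to 91.8 CPM in the MUTZ-1 controls and 69.4 to 74.3 CPM in the SKM-1 controls, through different genes. SPI1, a transcription factor of myeloid and B cells, was at 79.9 ± 3.58 CPM (SD, n = 3) in the MUTZ-1 controls and 9.36 ± 0.167 CPM in those of SKM-1, where the receptor KIT was highest at 49.4 ± 1.82 CPM. MPO, a myeloid granule enzyme, had at most 1 count in any group.

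In SKM-1 the summed level of 12 monocyte and macrophage markers was 41.7 to 45.9 CPM in the controls and 90.5 to 93.9 CPM after knockdown. It came mostly from CD68, a lysosomal membrane glycoprotein, and LYZ, lysozyme, and 2 of the 12 were at 0 in the controls and 3 after knockdown. Of the 6 tested monocyte and macrophage markers 5 rose and 1 fell, against 42.1% of all tested genes higher and 42.3% lower. Some of these calls rest on few reads. CD86, which fell, had 4 counts over the controls and 0 after knockdown, and MNDA, which rose, 2 and 12. VCAN, which rose, had 10 and 74, and passed the filter on low counts only through the SKM-1 knockdown group, where it was high. The 8 erythroid markers, all 8 of which rose, summed to 369 to 372 CPM in the controls and 1319 to 1361 CPM after knockdown. The 5 pan-leukocyte markers went from 255 to 262 CPM to 590 to 600.4 CPM, and 6 epithelial markers, mainly KRT8 and KRT18, from 374 to 382 CPM to 764 to 789 CPM. Other lists moved down or both ways in SKM-1. The 6 fibroblast markers went from 56.8 to 62.4 CPM to 13.6 to 16.9 CPM, mainly through the collagen gene COL3A1 (46.2 to 1.75 CPM), with 2 of 4 tested genes higher and 2 lower. LUM, among those that rose, had 15 counts over the controls and 58 after knockdown, and also passed the filter only through that knockdown group. Of 5 tested myeloid progenitor markers 3 rose, among them CD33 (8.55 to 39.8 CPM) and SPI1 (9.36 to 26.2 CPM), and 2 fell, among them KIT (49.4 to 7.10 CPM). In these bulk samples a change in the share of cells of a type cannot be told apart from a change of RNA per cell, and the part of these markers in the cathepsin changes was not tested.

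In MUTZ-1 the monocyte and macrophage markers summed to 17.4 to 20.9 CPM in the controls and 14.7 to 17.4 CPM after knockdown. CD86 was the single marker at 5 CPM or more, and CD163, FCGR1A and VCAN were at 0. Of 6 tested genes, VCAN among them, 3 fell and 0 rose, beside the lower CTSS. Over all tested genes 24.6% fell and 24.4% rose. The 3 were ITGAM from 1.12 to 0.183 CPM, MNDA from 1.17 to 0.602 CPM and LYZ from 1.37 ± 1.06 to 0.343 ± 0.0653 CPM (SD, n = 3). CD86, which makes up most of the sum, was at 13.2 and 13.8 CPM. The part of these markers in the CTSS difference was not tested. All 7 osteoclast markers were under 1 CPM in every group, beside the low CTSK.

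Of 6 other cathepsins (CTSE, CTSF, CTSG, CTSO, CTSV and CTSW), 4 were tested. In SKM-1 3 of the 4 fell and 0 rose, against 42.3% of all tested genes lower and 42.1% higher. CTSV, the close relative of CTSL, fell from 16.3 ± 1.40 to 1.12 ± 0.228 CPM (SD, n = 3; log2 -3.85 ± 0.17, SE; adjusted p = 3.62e-58, edgeR). It moved against CTSL although the coding sequences of the 2 genes are 83.2% identical along their alignment, the highest of the 45 pairs compared. How reads that match both genes were counted was not examined. In MUTZ-1 CTSV rose from 8.29 ± 1.07 to 11.0 ± 1.36 CPM (0.41 ± 0.12, adjusted p = 0.00233, edgeR).

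CTSF fell in SKM-1 from 37.5 ± 1.46 to 10.8 ± 1.37 CPM (-1.79 ± 0.09, adjusted p = 5.66e-46, edgeR), and had 0 and 3 counts over the 2 groups of MUTZ-1. CTSO, the third to fall, had 124 counts over the SKM-1 controls and 3 after knockdown, a ratio of 37.6 with a 95% counting interval from 12.6 to 185. It had 0 counts in MUTZ-1, so it passed the filter on low counts only through the SKM-1 controls, where it was high. CTSG, a granule serine protease activated by CTSC, had 60, 27, 18 and 8 counts over the 4 groups and was not called in either line (adjusted p = 0.427 in MUTZ-1 and 0.592 in SKM-1, edgeR). CTSE had 9 counts in the SKM-1 knockdown group and 0 elsewhere, and CTSW at most 2 counts in any group.

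Cystatins are the inhibitors of cysteine cathepsins, and of 9 listed genes 5 were in the table and 3 were tested. CST3, the secreted cystatin C, fell in SKM-1 from 148 ± 5.42 to 81.7 ± 2.32 CPM (SD, n = 3; log2 -0.85 ± 0.04, SE; adjusted p = 1.59e-52, edgeR) and was under 1 CPM in MUTZ-1. CSTB, a cytosolic inhibitor, rose in SKM-1 from 59.2 ± 1.65 to 120.2 ± 2.75 CPM (1.02 ± 0.04, adjusted p = 6.42e-58, edgeR). In MUTZ-1 CSTB was at 49.9 ± 2.61 and 54.6 ± 4.98 CPM, a rise of 0.13 ± 0.05 (adjusted p = 0.0216, edgeR) with overlapping groups, which was lost without control replicate 3 (adjusted p = 0.172) or knockdown replicate 2 (0.194). CSTA, another cytosolic inhibitor, rose in MUTZ-1 from 18.6 ± 1.23 to 25.7 ± 2.10 CPM (0.47 ± 0.10, adjusted p = 1.70e-05, edgeR) and had 9 and 6 counts over the SKM-1 groups. CST2 and CST7 had at most 13 counts in any group.

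Other genes of the lysosome and genes that act with it were read from lists arranged by role, and 114 genes of these lists were tested. The lists also hold the cystatins, class II loading genes, granule proteases and mTOR pathway genes, so the counts are not of lysosomal genes alone. In SKM-1 49 of them rose (43.0%) and 43 fell (37.7%), near the 42.1% and 42.3% of all tested genes. In MUTZ-1 26 rose (22.8%) and 32 fell (28.1%), against 24.4% of all tested genes higher and 24.6% lower. The same shares of all tested genes are the background for each list below. With library totals alone in place of the scaling factors, the MUTZ-1 split was 34 higher and 23 lower, and over all genes 60.7% of calls were higher against 49.8% with scaling.

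Of 12 other lysosomal peptidases and partners of cathepsins, 5 rose and 6 fell in SKM-1 (median log2 fold change -0.06, against 0.00 over all tested genes in both lines). LGMN, the asparaginyl endopeptidase that cleaves cathepsin precursors, fell from 63.4 ± 3.13 to 2.02 ± 0.506 CPM (log2 -4.98 ± 0.10, SE; adjusted p = 2.81e-119, edgeR). PRCP, a lysosomal carboxypeptidase, fell from 119.6 ± 1.72 to 54.1 ± 3.16 CPM. NEU1 and GLB1, the partners of CTSA, rose from 95.6 to 141 and from 87.8 to 123 CPM. In MUTZ-1, 3 of the 12 rose and 2 fell, among them PSAP, the saposin precursor, from 229 to 292 CPM and LGMN from 58.9 to 51.5 CPM.

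Of 17 genes for mannose 6-phosphate tagging and sorting, 8 rose and 1 fell in SKM-1 (median 0.05), and 4 rose and 5 fell in MUTZ-1 (median -0.02). SORT1, a sorting receptor for lysosomal enzymes, rose in SKM-1 from 152 ± 2.82 to 270 ± 6.48 CPM (0.83 ± 0.03, adjusted p = 9.91e-68, edgeR) and fell in MUTZ-1 from 9.77 ± 1.22 to 6.11 ± 0.146 CPM (-0.68 ± 0.11, adjusted p = 5.98e-09, edgeR). The difference between these effects was -1.51 and passed the test of the interaction, as did that of 72.0% of all tested genes. VPS26A, a retromer subunit, rose in SKM-1 from 74.5 to 134 CPM. M6PR, the cation-dependent mannose 6-phosphate receptor, fell in MUTZ-1 from 114 to 93.6 CPM, where the sorting receptor SORL1 rose from 131 to 180 CPM.

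The vacuolar proton pump, which acidifies the lysosome, rose in SKM-1 in 13 of 16 genes and fell in 2, with a median log2 fold change of 0.63. Of all tested genes, 42.1% rose and 42.3% fell in SKM-1. ATP6V0A2 rose most, from 33.0 ± 0.796 to 70.2 ± 2.19 CPM (1.09 ± 0.05, adjusted p = 2.20e-54, edgeR), and ATP6V1F went from 117 to 218 CPM. ATP6AP1 and ATP6V1A, the 2 that fell, went from 206 to 116 and from 209 to 133 CPM. In MUTZ-1, 1 of the 16 rose (ATP6V1A, from 192 to 223 CPM) and 7 fell, with a median of -0.06, against 24.4% and 24.6% of all tested genes.

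Of 25 other lysosomal hydrolases, 6 rose and 14 fell in SKM-1 (median -0.21), and 9 rose and 5 fell in MUTZ-1 (median 0.13). GAA, the acid glucosidase that degrades glycogen, fell in SKM-1 from 226 ± 1.85 to 6.57 ± 0.454 CPM, and LIPA, the acid lipase, from 56.6 ± 2.30 to 1.70 ± 0.771 CPM. GALC, the galactosylceramidase, rose from 9.63 to 32.1 CPM. In MUTZ-1 SGSH, a sulfamidase, rose from 5.50 to 10.0 CPM and GLA, the acid galactosidase, fell from 36.2 to 25.4 CPM.

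Of 15 membrane proteins, 7 rose and 7 fell in SKM-1 (median 0.07), and 2 rose and 4 fell in MUTZ-1 (median 0.03). LAPTM5, found in lysosomes of blood cells, rose in SKM-1 from 32.6 to 126 CPM, and SCARB2, the receptor that carries glucocerebrosidase, fell from 193 to 55.5 CPM. NPC2, a soluble cholesterol carrier kept in this list, fell from 56.5 to 26.5 CPM.

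**Figure D4:**
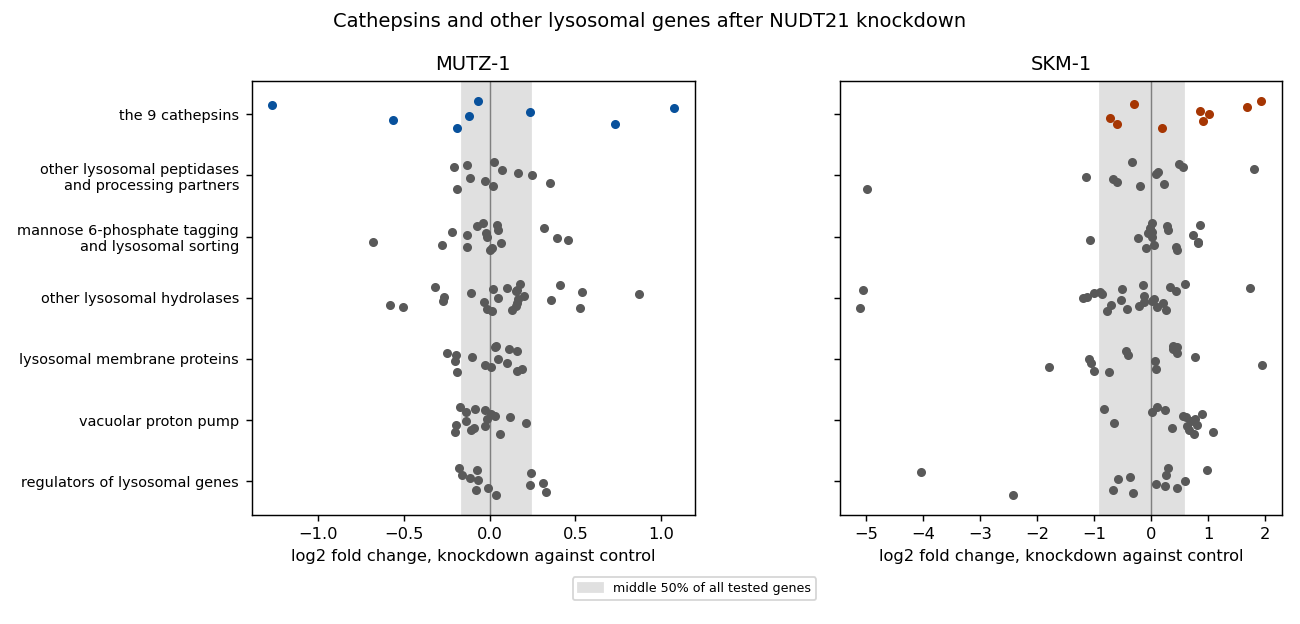
Log2 fold changes after NUDT21 knockdown in MUTZ-1 (left) and SKM-1 (right), 1 point per gene, for the 9 cathepsins (coloured) and 6 lists of other genes (grey). The lists cover the lysosome, its sorting routes and its regulators. Genes with 3 or fewer counts over a group have no point. The shaded band holds the middle 50% of all tested genes, and the axes differ between the panels. LGMN, GAA and LIPA lie near -5 in SKM-1, and the proton pump lies mostly above 0 there.

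Of 13 tested regulators of lysosomal genes, 6 rose and 6 fell in SKM-1 (median 0.09), and 4 rose and 3 fell in MUTZ-1 (median -0.07). TFEB, the activator that binds CACGTG, fell in SKM-1 from 12.6 ± 0.777 to 2.35 ± 0.294 CPM (-2.41 ± 0.13, adjusted p = 5.84e-47, edgeR), and RRAGD, a GTPase of the mTOR pathway, from 45.1 ± 0.922 to 2.75 ± 0.389 CPM (-4.03 ± 0.10, adjusted p = 2.67e-101, edgeR). MTOR, the kinase that restrains TFEB, rose from 151 to 298 CPM. In MUTZ-1 TFE3 rose from 23.7 to 29.9 CPM. CTSA and CTSD, the 2 genes with CACGTG among the 6 whose promoters were searched, moved in opposite directions in SKM-1.

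Genes for loading of class II molecules, the setting in which CTSS is best known, fell in MUTZ-1 in 5 of 7 and rose in 0 (median -0.30). Of all tested genes, 24.6% fell and 24.4% rose in MUTZ-1. CD74, the invariant chain itself, fell from 1312 ± 14.4 to 1056 ± 16.2 CPM (-0.31 ± 0.03, adjusted p = 1.38e-11, edgeR) and HLA-DRA from 253 ± 6.61 to 184 ± 3.92 CPM (-0.46 ± 0.03, adjusted p = 7.13e-33, edgeR). In SKM-1, 2 of the 7 rose and 3 fell, against 42.1% of all tested genes higher and 42.3% lower. All 7 were at least 2-fold lower in the SKM-1 controls than in those of MUTZ-1 (median log2 difference 8.65, MUTZ-1 minus SKM-1). IFI30, a thiol reductase of the lysosome, rose in SKM-1 from 41.7 to 105 CPM. It was the only called gene of this list that averaged 5 CPM or more in SKM-1, so the other calls there rest on low levels. Among 3 tested granule serine proteases activated by CTSC, 1 rose in SKM-1 beside CTSC and 1 fell in MUTZ-1, all under 5 CPM.

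The 9 genes lie on 6 chromosomes. CTSS (chr1:150730188-150765778) and CTSK (chr1:150796208-150808260) are neighbours on the minus strand of chromosome 1, 30430 bases apart, and after knockdown CTSS was lower and CTSK higher in both lines, at -1.27 and 1.08 in MUTZ-1 and at -0.29 and 0.86 in SKM-1 (log2). The next tested gene on the outer side of CTSS, GOLPH3L, differed by 0.09 in MUTZ-1 and by -2.48 in SKM-1, and ARNT, beside CTSK, by 0.19 and -0.33. CTSA and CTSZ are both on chromosome 20, CTSC and CTSD on chromosome 11, CTSL on chromosome 9, CTSH on chromosome 15 and CTSB on chromosome 8.

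In SKM-1 whole chromosomes differed, with median log2 fold changes from -1.09 to 0.47 over the chromosomes, against -0.02 to 0.03 in MUTZ-1. The medians of the 6 chromosomes that hold cathepsins lay between -0.22 and 0.21 in SKM-1. Within 1000000 bases of CTSK, the 56 other tested genes had a median of -0.80 in SKM-1, where CTSK was at 0.86, and the 13 around CTSZ a median of -0.25, where CTSZ was at 1.93. For CTSH (15 genes, median -0.44, against 1.02) the window also moved the other way. Around CTSL the 4 tested genes had a median of 1.54, near the 1.68 of CTSL, and around CTSB the 9 tested genes had a median of -0.69, near the -0.60 of CTSB. The windows of CTSD (29 genes, median -0.26, against -0.71) and CTSS (55 genes, -0.80 against -0.29) were lower as these genes were, and that of CTSA (25 genes) had a median of -0.01. CTSS and CTSK lie 30430 bases apart, so their windows are largely the same genes, each holds the other gene, and they are not separate regions. Beside CTSL, DAPK1 rose by 2.10 ± 0.08, and beside CTSB, FDFT1 fell by 0.69. Beside CTSZ, NELFCD changed by 0.29 and TUBB1 by 1.58, and RAB38, the single tested gene in the window of CTSC, changed by -3.78. The next tested gene on the other side of CTSC, CHORDC1, lies 1862693 bases away and changed by 1.45. The part of the chromosomal shifts in the SKM-1 changes was not tested.

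NUDT21 is known for its part in the choice of 3′ ends, and the 3′ untranslated regions (UTRs) of representative GENCODE v29 transcripts are described here. Counts per gene do not show which end was used. CTSS has the longest of the 9 at 2850 bases, with 21 copies of TGTA, the letters that NUDT21 recognises as UGUA, or 7.37 per kilobase. CTSB follows with 2601 bases and 12 copies (4.61 per kilobase), and the other 7 are between 285 (CTSL) and 1072 bases (CTSH). The 3′ UTRs of the 13288 tested genes with such a transcript had a median of 1059.5 bases. The 12579 of these genes with a 3′ UTR of at least 100 bases had a median of 5.04 TGTA per kilobase. CTSC, with 9.66 per kilobase over 414 bases, had the highest density of the 9, above that of 89.4% of those genes.

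The genes most like CTSS across the 12 libraries, by the distance between centred log2 levels among 10894 genes that averaged 5 CPM or more, were PARP10 (Pearson r = 0.983), SAMD9, SERINC2, MFSD2A and VWCE. PARP10 averaged 41.8 and 26.0 CPM in the MUTZ-1 control and knockdown groups and 3.55 and 2.10 CPM in those of SKM-1. Its distance to CTSS was 1.09. Those most like CTSZ were SLC43A3 (r = 0.995), CYBA, AGPAT4, ZC3HAV1 and ZNF93. SLC43A3, at a distance of 0.290, averaged 294, 271, 89.9 and 339.8 CPM in the same order of groups, and CYBA 165, 161, 56.2 and 179 CPM. These points are libraries of 4 groups, so the likeness is mostly one of group means, and it is given as a description.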

How the data were processed

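The authors deposited a table of whole-number read counts per gene and a table of FPKM values for 12 libraries; the tools fastp, HISAT2 and HTSeq and the build GRCh38 are those of the submitters' processing notes, and the strand setting is not given in the sources used here. Per the labels' protocols, TRIzol was used to extract RNA and a TruSeq Stranded mRNA kit to build libraries. The deposited FPKM fit the counts divided by library total and 1 length per gene. Counts were fitted with edgeR 4.0.16 in R 4.3.3 (filterByExpr, TMM factors 0.959 to 1.06, robust quasi-likelihood test, a single model of the 4 groups over 12 libraries, 8 residual degrees of freedom), with p-values adjusted by the Benjamini-Hochberg method over 13625 genes and calls at an adjusted p under 0.05. SE comes from the log2 fold change and the F statistic (its size over the root of F). Replicates differed beyond sampling noise (chi-square per degree of freedom 1.66 to 2.25), so none was a copy. Alternatives were DESeq2 1.42.0, other scaling, no filter, 1 line alone, a replicate block, limma 3.58.1 on log2(FPKM + 1) and log2(FPKM + 0.1), leaving out each library, and shares of counts. The fit was tested on simulated data in which few genes changed, with equal numbers up and down. That simulation does not cover a knockdown that moves most genes, as in SKM-1.

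Members and lists were chosen with earlier results of these data known. Named genes were the 9 cathepsins, NUDT21, the other cathepsins and cystatins in the table, per lysosomal list and line the 2 largest rises and falls among called genes averaging 5 CPM or more, the nearest tested neighbours, and the 5 genes most like CTSS and CTSZ; of these, some are given in counts only. Further genes (MPO, SPI1, KIT, CD33, CD68, LYZ, ITGAM, MNDA, CD86, CD163, FCGR1A, VCAN, KRT8, KRT18, COL3A1, LUM) come from the marker lists and were singled out after their values were seen. Of the tested genes, 98.5% matched a RefSeq position. Promoters are RefSeq's, and transcript lengths, UTRs and coding sequences GENCODE's.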

Additional observations from a re-analysis of the deposited data

Results flagged for a closer look

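Of the 9 cathepsins, 4 had every knockdown library on opposite sides of the controls in the lines, and this difference was not tested because the MUTZ-1 contrast helped to choose the set. The same held for 29.9% of all tested genes, and for 3 of the 9 on the FPKM scale, where the MUTZ-1 groups of CTSZ overlapped. The knockdown effect in MUTZ-1 minus that in SKM-1 was -1.997 for CTSZ, -1.47 for CTSC, -0.39 for CTSA and 1.33 for CTSB (log2, as are all values here).

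For 39 of 46 other genes described here the same difference passed edgeR's test of the interaction, 19 with a positive and 20 with a negative value. Over all tested genes 72.0% passed it, and most of the 46 were named for the size of their change in 1 of the lines. The highest adjusted p among the 36 of 40 genes named from the lists arranged by role that passed was 0.0106. NUDT21 itself differed by 0.23, which is the smaller remaining share in SKM-1.

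Among cathepsins, inhibitors and partners, CTSV differed by 4.26, LGMN by 4.78, PRCP by 1.39 and PSAP by 0.11, and CSTB by -0.89, NEU1 by -0.77 and GLB1 by -0.62. In tagging and sorting, SORL1 differed by 1.53 and GGA1 by 0.63, and SORT1 by -1.51, VPS26A by -0.81 and M6PR by -0.33.

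Among other hydrolases the largest differences were those of GAA at 5.63 and LIPA at 5.21, both of which fell steeply in SKM-1. SGSH followed at 1.73 and SMPD1 at 1.44, while GALC was at -1.63, GLA at -0.61 and ACP2 at -0.42. Of the membrane proteins, SCARB2 was at 1.80, LAMP2 at 1.17 and NPC2 at 1.14, and LAPTM5 at -1.98, MCOLN1 at -0.87, CTNS at -0.71 and NPC1 at -0.27.

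In the proton pump, ATP6V1A was at 0.86 and ATP6AP1 at 0.74, and ATP6V0A2 at -1.29, ATP6V0E1 at -1.00 and ATP6V1F at -0.89. Among regulators RRAGD was at 4.28, TFEB at 2.45 and TFE3 at 0.65, and MTOR at -1.05, RPTOR at -0.48 and FNIP2 at -0.28. IFI30 was at -1.51.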

How the results depend on the processing

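The direction of all 9 cathepsins in SKM-1 was the same in the 14 alternatives run for each, and 8 of them kept their call in all 14. CTSS lost its call 4 times, at -0.31 in the fit of the 6 SKM-1 libraries alone and in 3 of the fits that left out a library, whose values ran from -0.39 to -0.16. The number of cathepsins called lower was 2 to 3 over those fits, and the number called higher was 6 throughout. No fitted difference of a cathepsin in MUTZ-1 or between the control lines changed sign, but small ones moved by over 1.5 times: over 14 alternatives in MUTZ-1 CTSD ran from -0.16 to -0.04, CTSZ from -0.07 to -0.02 and CTSH from 0.09 to 0.35, and CTSK between the control lines from 0.28 to 0.95. In SKM-1 CTSA ran from 0.12 to 0.21 and CTSK from 0.46 to 1.20. For the difference of knockdown effects CTSK ran from -0.12 (without SKM-1 control replicate 2) to 0.44, and CTSA was -0.25 with log2(FPKM + 1). Log2(FPKM + 0.1) with limma called 21 genes of the lists arranged by role lower in MUTZ-1 in place of 32. Values of 2 low genes that were not called changed sign in SKM-1 without 1 library: CTSG from -1.00 to 0.20 without control replicate 2, and CSTA from -0.43 to 1.06 without control replicate 3 and to 0.12 without knockdown replicate 3. Over the fits that left out a library, CTSG ran from -3.17 to 0.20 and CSTA from -2.21 to 1.06. In MUTZ-1, calls of CTNS and MTOR were lost in 8 and 10 alternatives, and those of LGMN, HLA-DRA, CD74, CSTA and CSTB in 1 or 2; CTSG gained a call in the fit of 1 line alone.

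Replicate numbers did not pair the samples, since same-numbered deviations correlated at -0.06 to 0.03 and not every library correlated best with its own number. With the replicate number as a block, 5706 genes were higher and 5742 lower in SKM-1 (5735 and 5765 without it), and 3243 and 3290 in MUTZ-1 (3326 and 3354). The block left 6 cathepsins higher and 3 lower in SKM-1. The block and the fit of 1 line alone were not used between the control lines, since replicate numbers are nested in a line.

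Library totals in place of TMM moved the median of all genes by 0.13 for the difference of knockdown effects and by -0.14 between the control lines. Depth limits CTSK, with as few as 18 counts in a library, and CTSL in MUTZ-1.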
